A study of Rattus norvegicus with 57 samples.

Results

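The transcripts described here belong to 38 genes of fatty acid oxidation and of the peroxisome proliferator-activated receptors (PPARs) and were taken by gene symbol. All 38 had a probe set on the array, and all 38 passed the filter on low signals, among 11683 genes tested. The animals were male Han Wistar rats [Crl:WI(Han)], 8 weeks old when they were dosed once into the peritoneum with saline, with 1 mg/kg or with 3 mg/kg of cisplatin, a platinum chemotherapy drug that injures the kidney tubule. Cortex-enriched kidney tissue was taken on day 3, 5, 8 or 26 after the dose, and total RNA of each animal was read on 1 Affymetrix rat array. The 57 arrays made 12 groups of 5 animals, except the day 26 controls with 4 and the 1 mg/kg group of day 5 with 3. The same-day saline group served as the control of both doses, so the comparisons of the doses with that control share its animals. The comparisons ask when, and at which dose, the fat-burning genes of the kidney cortex moved.

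Fatty acid oxidation is the main source of energy of the proximal tubule, the part of the nephron that reabsorbs most of the filtrate. Fatty acids are taken up, joined to coenzyme A, carried into mitochondria as carnitine esters and shortened there in a repeating cycle of dehydrogenation, hydration, a further dehydrogenation and thiolysis, while peroxisomes shorten the longest and branched chains. PPARs are nuclear receptors that bind fatty acids, pair with the retinoid X receptor and switch on many of these genes, with the coactivator Ppargc1a as a partner. A signal is the brightness of a probe set on the linear scale after the authors' scaling, and a change is a difference of log2(signal + 16) between group means, given with its standard error. The standard errors and intervals of changes rest on a spread shared over all arrays of the fit, not on the compared animals alone. A gene was called when its p-value, adjusted by the Benjamini-Hochberg method over all 11683 genes in limma's fit of all arrays, was under 0.05. Adjusted p-values come from that fit, except those of a gene's second probe set, from limma's fit of all probe sets kept, and those given without an animal, from the fit without it. Signals of different genes come from different probes and are not set against each other.

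The upstream sequences of 5 members are shown because these genes carry the main results (Angptl4, Ehhadh, Eci1 and Acsl4) or hold more than 1 copy of the receptor motif (Acadvl). Each line gives the 200 bases upstream of the gene's start, 5′ to 3′ on the gene's strand, from RefSeq's rat annotation on build GRCr8. Capitals mark the letters AGGTCA, the core of a nuclear receptor site, and GGGCGG, the GC box, on either strand, so that their reverse complements TGACCT and CCGCCC also stand in capitals. In Acsl4 a pair of GC boxes overlaps. The positions are chr7:15258682-15258881 on the minus strand for Angptl4, chr11:92746209-92746408 on the plus strand for Ehhadh, chr10:13961050-13961249 on the plus strand for Eci1, chrX:110803262-110803461 on the minus strand for Acsl4 and chr10:55236706-55236905 on the minus strand for Acadvl.
Angptl4: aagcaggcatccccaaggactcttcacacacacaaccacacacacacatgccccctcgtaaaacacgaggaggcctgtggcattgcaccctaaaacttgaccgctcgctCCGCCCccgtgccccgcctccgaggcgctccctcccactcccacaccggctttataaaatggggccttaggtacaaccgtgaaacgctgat
Ehhadh: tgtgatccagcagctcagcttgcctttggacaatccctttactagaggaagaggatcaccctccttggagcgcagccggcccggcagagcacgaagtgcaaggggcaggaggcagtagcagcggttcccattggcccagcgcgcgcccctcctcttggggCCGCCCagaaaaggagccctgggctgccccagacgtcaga
Eci1: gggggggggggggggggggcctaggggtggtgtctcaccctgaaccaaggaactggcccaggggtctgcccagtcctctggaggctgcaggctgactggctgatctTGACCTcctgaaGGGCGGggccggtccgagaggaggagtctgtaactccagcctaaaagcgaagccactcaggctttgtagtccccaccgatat
Acsl4: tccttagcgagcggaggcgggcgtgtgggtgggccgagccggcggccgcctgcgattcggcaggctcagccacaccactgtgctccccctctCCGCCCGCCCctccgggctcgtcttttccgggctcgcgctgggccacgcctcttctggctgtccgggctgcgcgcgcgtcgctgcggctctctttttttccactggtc
Acadvl: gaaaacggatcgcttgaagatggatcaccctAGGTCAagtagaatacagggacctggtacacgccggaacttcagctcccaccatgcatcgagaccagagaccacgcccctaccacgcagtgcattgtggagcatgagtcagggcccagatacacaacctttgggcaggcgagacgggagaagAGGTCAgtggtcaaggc

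RefSeq's promoter table held an entry for 33 of the 38 members. In the 250 bases upstream, read on both strands, the full PPAR repeat, AGGTCA followed by any 1 base and by AGGTCA again, was found in 0 of the 33 and in 0.0546% of all 27457 promoters. The repeat of AGGNCA with any 1 base between was in 0 of the 33 and in 0.353% of all promoters, and AGGNCA, any 1 base and AGNNCA, which holds both of the stricter repeats, in 0 of the 33 and in 0.863%. The extended receptor motif TCAAGGTCA was likewise in 0 of the 33, against 0.368% of all. These 4 motifs are so rare over all promoters that 0 of 33 says little about the members. Sites beyond the 250 bases or inside the genes were not searched. The core AGGTCA, which lies inside the first and the last of these motifs, was in 4 of the 33 (12.1%, against 13.7% of all), namely Acadvl, Echs1, Eci1 and Hsd17b4. The GC box was in 22 of the 33 (66.7%, against 32.4% of all), while CCAAT was in 11 (33.3%, against 34.3%) and TATAAA in 3 (9.09%, against 13.1%). These promoters were also richer in G and C, with a median of 60% over the 200 bases against 52.5% for all promoters, and the GC box itself is made of those letters.

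Marker genes of cell types were compared between the 3 mg/kg animals and the controls of day 8. No other kidney region was measured, so the markers do not test the cortex label. The 12 proximal tubule markers, fixed by name, summed to a median signal of 32380 in the 3 mg/kg animals of day 8 (range 31130 to 32920) and of 31280 in their controls (28060 to 33140), with 2 markers higher and 3 lower in the test. The 6 measured markers of the loop of Henle and distal tubule summed to 1448 (728.3 to 5623) against 10830 (10440 to 11740), all 6 lower. Collecting duct markers were lower in 5 of 7 (median sum 2764 against 4241), endothelial markers in 3 of 5 (949.9 against 1086), and macrophage markers were higher in 5 of 6 (3046 against 1605). Of 3 measured adipocyte markers, whose tissue also burns and stores fat, 1 was higher and 1 lower (306.7 against 252.8), and of 5 blood markers 2 were higher, although their median sum was lower (1482 against 2386). Each sum follows the brightest probe sets of its list, such as Lyz2 among the macrophage markers and Hbb among the blood markers. A level sum, as for the proximal tubule, can therefore hide markers that moved apart. In a homogenate, fewer cells of a type and less RNA per cell cannot be told apart. The part of these shifts in the members' changes was not tested. Within groups, array profiles correlated at 0.973 to 0.993. The fourth day 26 control (replicate 4) stood apart in the members, and the day 26 results that rest on the controls are therefore given with and without it.

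In the fit of all arrays the members changed most on day 8 at 3 mg/kg. The test called 24 of the 38, with 17 higher and 7 lower, where 37.3% of all genes tested were called (21.4% higher, 15.9% lower). The median change was 0.18 over the 38 members and 0.04 over all genes. The increases were led by Angptl4, Ehhadh, Eci1 and Acsl4, and the decreases by Acadsb and Ppard. At the same dose 4 members were called on day 3 (9.85% of all genes), 4 on day 5 (8.8%) and 1 on day 26 (0.753%). Among the members and among all genes alike, calls were most frequent on day 8 and least frequent on day 26. No member was called at 1 mg/kg on any day.

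**Figure D1:**
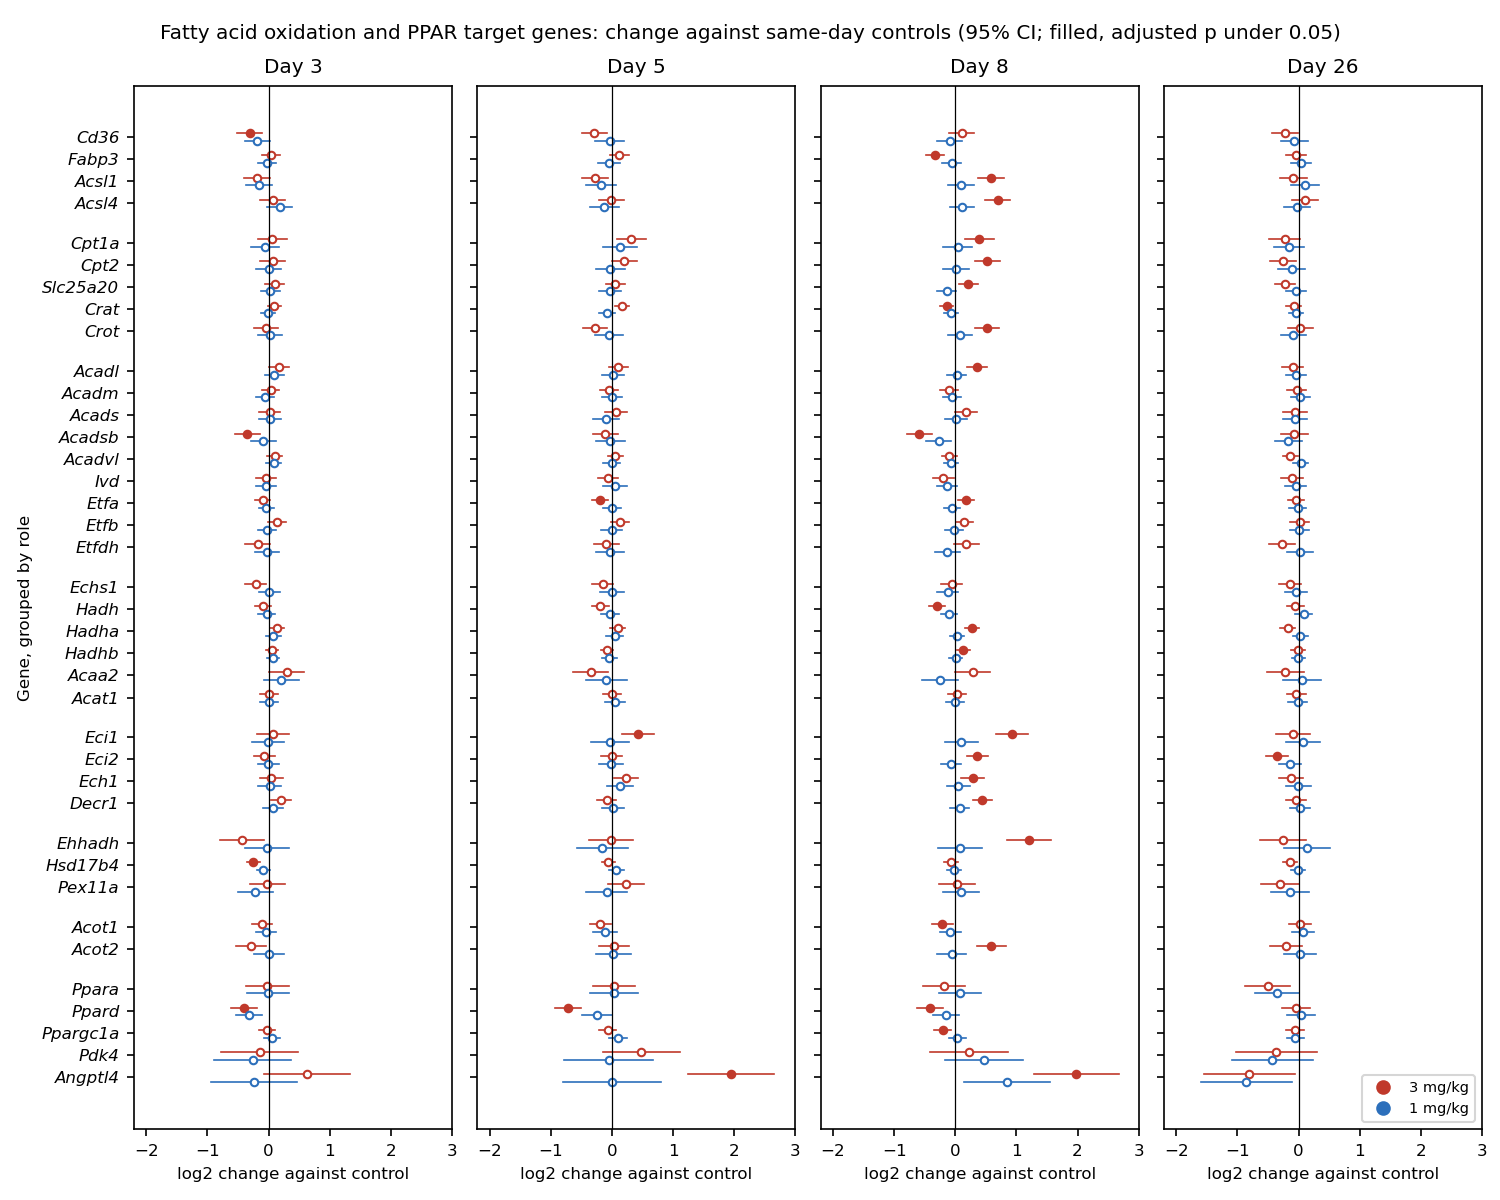
Change of each of the 38 genes (rows, grouped by role) against same-day controls on days 3, 5, 8 and 26 (panels), as log2 change with 95% confidence intervals, in red for 3 mg/kg and blue for 1 mg/kg; filled points passed an adjusted p of 0.05. Filled points are most frequent on day 8 at 3 mg/kg, with 24 genes, and no blue point is filled. The intervals rest on the spread shared over all arrays and can be too narrow for day 8 at 3 mg/kg.

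The plot of changes by day and dose puts the day 8 increases on the right of 0 for most steps of the pathway, with a few genes of the same steps on the left. Among the 4 genes of uptake and activation, 2 were higher and 1 lower on day 8, where 21.4% of all genes were higher and 15.9% lower. Acsl4, an acyl-CoA synthetase that prefers polyunsaturated chains, had signals of 761.1, 727.6, 717.3, 699.7 and 719.4 in the day 8 controls and of 909, 1454, 863.5, 1350 and 1514 at 3 mg/kg. Every treated animal lay above every control, and the change was 0.70 ± 0.10 (SE from the fit of all arrays, n = 5 against 5, adjusted p = 2.37e-07). Acsl1, the main synthetase for long saturated chains in oxidative tissues, gave 751.3, 728.7, 849, 824.7 and 718.4 in controls and 848.9, 1580, 849.3, 1245 and 1499 in treated animals. Of these treated animals 3 stood well above the controls and the others were level with the highest control; the change was 0.58 ± 0.11 (adjusted p = 2.07e-05).

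Fabp3, a cytosolic fatty acid carrier, was lower on day 8 by the test (change -0.33 ± 0.08, adjusted p = 0.000482), although the groups overlapped. Its signals were 1259, 1236, 1481, 1457 and 1406 in controls and 1377, 1019, 1260, 847.6 and 988 at 3 mg/kg. Cd36, the fatty acid transporter of the cell membrane, did not pass on day 8 (change 0.11 ± 0.10, adjusted p = 0.427).

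All 5 genes of the carnitine shuttle were called on day 8, 4 of them higher, where 37.3% of all genes were called. Cpt2, which returns acyl groups to coenzyme A inside the mitochondrion, had control signals of 191.8, 192, 204.4, 228.8 and 203.8 and treated signals of 234, 385.6, 220.5, 261.2 and 466.5. Replicates 2 and 5 were far above the rest and replicate 3 lay within the control range (change 0.53 ± 0.10, adjusted p = 4.97e-05). Crot, the peroxisomal octanoyltransferase that exports shortened chains, did not overlap between groups. It gave 807.9, 693.6, 711.3, 624.5 and 683.7 in controls and 846, 1293, 871.1, 898.3 and 1226 at 3 mg/kg (change 0.52 ± 0.10, adjusted p = 3.29e-05). Its second, dimmer probe set gave 0.26 and did not pass (adjusted p = 0.0647).

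Cpt1a, the enzyme that gates entry of long chains into mitochondria, rose by less, with signals of 730.9, 821.2, 864.6, 1076 and 940.7 in controls and 1016, 1284, 1060, 896.2 and 1671 in treated animals. The groups overlapped, and the change was 0.39 ± 0.12 (adjusted p = 0.00712). Its second, dimmer probe set moved by 0.25 and did not pass (adjusted p = 0.12). Without treated replicate 5 the Cpt1a change was 0.26 and did not pass. Slc25a20, the carrier that exchanges acylcarnitine for carnitine across the inner membrane, rose by 0.21 ± 0.08 (adjusted p = 0.0251), while Crat, which makes acetylcarnitine, was lower by the test (-0.14 ± 0.06, adjusted p = 0.0418). The call of Slc25a20 was lost without treated replicate 2 (change 0.11) or 5 (0.14) or without control replicate 1 or 2. That of Crat was lost without control replicate 1, 2 or 5 or treated replicate 1, 3 or 4, with changes from -0.21 to -0.11 over the fits that left out 1 animal.

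The acyl-CoA dehydrogenases and their electron carriers were mixed, with 3 of 9 called on day 8, 2 of them higher. This is near the share of all genes called, 37.3% (21.4% higher). Acadl, which handles long chains, was higher by 0.36 ± 0.08 (adjusted p = 0.000268), with controls between 1585 and 1678 and treated animals at 1770, 2800, 1624, 2048 and 2410. Etfa, a subunit of the flavoprotein that takes the electrons from all of these dehydrogenases, was higher by 0.18 ± 0.06 (adjusted p = 0.0225), a call lost without treated replicate 2 (0.09) or 5 or control replicate 1 or 4. Its partner subunit Etfb and the oxidoreductase Etfdh changed by 0.15 and 0.18 and did not pass (adjusted p = 0.0971 and 0.15). Acadvl, Acadm and Acads, the enzymes of very long, medium and short chains, did not pass either, at -0.10, -0.10 and 0.18.

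Acadsb, which acts on short branched chains from isoleucine, went the other way. Its signals were 37.38, 35.53, 36.85, 27.36 and 31.27 in the day 8 controls and 13.69, 15.05, 21.18, 16.44 and 19.24 at 3 mg/kg. Every treated animal lay below every control (change -0.58 ± 0.10, adjusted p = 7.15e-06). This probe set is dim, and on a scale of log2(signal + 16) a change of so low a signal is understated. Ivd, the isovaleryl-CoA dehydrogenase of leucine breakdown, changed by -0.19 ± 0.08 and did not pass (adjusted p = 0.0582).

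Of the 6 genes for the later steps of the mitochondrial cycle, Hadha and Hadhb, the subunits of the trifunctional protein for long chains, were higher by 0.28 ± 0.06 (adjusted p = 0.000227) and 0.13 ± 0.05 (adjusted p = 0.0334). The call of Hadhb was lost without treated replicate 2 or 5 or control replicate 1 or 5 (0.10 to 0.16 over the fits that left out 1 animal), and a dim second probe set of Hadha gave 0.17 (adjusted p = 0.173). Hadh, the dehydrogenase for medium and short chains, was lower by the test (-0.30 ± 0.07, adjusted p = 0.000346). Its control signals were 1622, 1746, 1907, 1962 and 1899, and its treated signals were 1252, 1506, 1371, 1508 and 1822. In 4 of the 5 treated animals Hadh lay below every control. Echs1, a hydratase, and the thiolases Acaa2 and Acat1 changed by -0.06, 0.28 and 0.02 and did not pass, although a second, dimmer probe set of Acat1 gave 0.35 (adjusted p = 0.00638).

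The auxiliary enzymes move or reduce the double bonds of unsaturated chains so that they can enter the cycle. All were higher on day 8 (4 of 4), where 21.4% of all genes were higher. Eci1, the mitochondrial enoyl-CoA isomerase, had signals of 1140, 1250, 1524, 1689 and 1354 in controls and of 1907, 4104, 1904, 2517 and 3433 at 3 mg/kg. All treated animals were above all controls, with the highest values in replicates 2 and 5 (change 0.93 ± 0.13, adjusted p = 1.47e-07). The probe set is of the type that matches several transcripts, and how far it binds others was not tested. A second probe set of Eci1, with a mean signal of 9.92, changed by 0.18 and did not pass (adjusted p = 0.451). Decr1, the dienoyl-CoA reductase, gave 1903, 2007, 2316, 2295 and 2164 in controls against 2469, 3143, 2421, 3147 and 3441, again without overlap (0.44 ± 0.08, adjusted p = 1.19e-05).

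Eci2, a related isomerase of mitochondria and peroxisomes, was higher by 0.36 ± 0.09 (adjusted p = 0.000724), and Ech1, a dienoyl-CoA isomerase, by 0.29 ± 0.10 (adjusted p = 0.0138). For Ech1, 1 animal stood far above the rest: the treated signals were 934.1, 882.1, 812.5, 862.2 and 1521, against 759.1 to 830.9 in controls. Without that animal, replicate 5, the change was 0.13 and did not pass.

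Of the 3 members grouped under the peroxisome, which leaves out Crot and Eci2, Ehhadh was called on day 8 and Hsd17b4 and Pex11a were not. Over all genes 37.3% were called on that day. Ehhadh, the bifunctional hydratase and dehydrogenase of the inducible peroxisomal route, had control signals of 544.4, 519.2, 511.1, 632.5 and 535.2 and treated signals of 784.9, 2008, 650.8, 1599 and 2136. Replicates 2, 4 and 5 were far above the controls, and replicate 3 was just above the highest control (change 1.21 ± 0.18, adjusted p = 3.23e-07). Hsd17b4, the bifunctional enzyme of the branched-chain route, changed by -0.07 ± 0.06 (95% interval -0.18 to 0.04). Pex11a, a membrane protein of peroxisome division, changed by 0.03 ± 0.15 (interval -0.26 to 0.32), with treated animals on both sides of the controls: 312.4, 205.3, 441.5, 168.2 and 405.7 against 247.9 to 316.1.

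The thioesterases, which release fatty acids from coenzyme A, went opposite ways. Acot2, the mitochondrial enzyme, had control signals of 494.5, 539.5, 525.2, 665.2 and 574.8 and treated signals of 588.4, 1089, 571.6, 948.2 and 1251. Replicates 2, 4 and 5 lay above the controls, the other treated animals among them (change 0.59 ± 0.12, adjusted p = 0.000108), and its other 2 probe sets gave 0.49 and 0.76. Acot1, the cytosolic enzyme, was lower by the test (-0.21 ± 0.08, adjusted p = 0.0408), a call lost without any 1 of control replicates 2 to 5 or treated replicates 1 and 4 (-0.29 to -0.15 over the fits that left out 1 animal). They are close paralogs, and how far each probe set also binds the other transcript was not tested.

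Among the regulators, Angptl4, a secreted inhibitor of lipoprotein lipase and a well-known PPAR target, had the largest change of all members on day 8. Its signals were 17.65, 21, 23.53, 16.86 and 24.91 in controls and 175.9, 62.76, 170.9, 79.99 and 216.7 at 3 mg/kg, without overlap (1.98 ± 0.35, adjusted p = 1.01e-05). The control signals lie near the offset of 16, and the change was 1.21 with an offset of 64 and 2.62 with no offset, past the threshold in both. Ppard, the receptor found in most tissues, gave 134.9, 110.1, 112.9, 107 and 119.1 in controls and 95.91, 56.37, 84.05, 107.8 and 81.55 in treated animals. It was lower by the test (-0.41 ± 0.11, adjusted p = 0.00196), with replicate 4 inside the control range, and its second, dimmer probe set was lower too (-0.74). Ppargc1a, the coactivator of mitochondrial genes, gave 350.9, 306.5, 333.5, 325.9 and 340.4 against 299.3, 264.7, 303, 294.5 and 263.4. Every treated animal was below every control, by a small amount (-0.21 ± 0.07, adjusted p = 0.0111), and its other 2 probe sets gave -0.34 (adjusted p = 0.105) and -0.27 (adjusted p = 0.012).

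Ppara, the receptor best known for fat burning in liver and proximal tubule, was close to the floor of its probe set. Its signal was under 16 on 51 of the 57 arrays and between 1.494 and 20.33 on all of them, and no change of Ppara was called on any day. Pdk4, the kinase that turns pyruvate away from oxidation and a PPAR target, did not pass (0.23 ± 0.31, adjusted p = 0.605), and its control signals alone ran from 71.08 to 261.

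**Figure D2:**
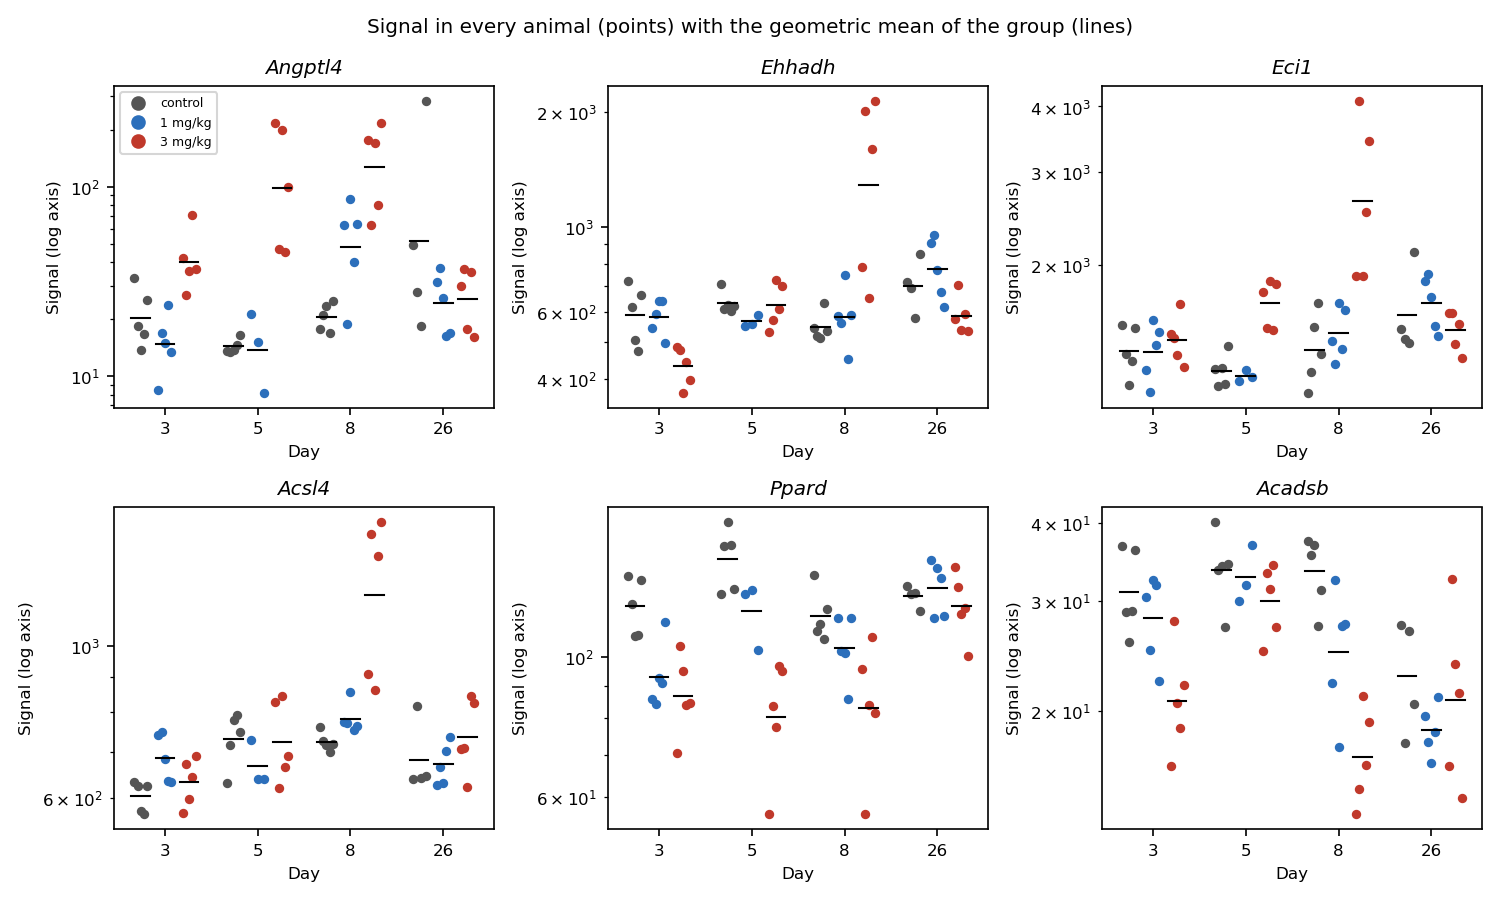
Signal of 6 genes in every animal (points, log axis) by day and dose, with the geometric mean of each group as a line, for controls (grey), 1 mg/kg (blue) and 3 mg/kg (red). At day 8 the 3 mg/kg points of Angptl4, Ehhadh, Eci1 and Acsl4 lie above all same-day controls and those of Acadsb below them, and at day 5 those of Angptl4 lie above and those of Ppard below.

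The plot of signals per animal shows how widely the treated animals of day 8 spread. The standard deviation of the log2 values was larger at 3 mg/kg than in controls for 24 of the 24 called members, with a median ratio of 3.24. Whether all genes spread as widely was not tested. Of the 17 members that were higher, replicates 1 to 5 at 3 mg/kg exceeded every control in 9, 17, 9, 15 and 17. These members were picked because this same group was higher, so the counts only describe the animals. The replicates' median differences from the control mean over all 38 members were -0.002, 0.46, -0.01, 0.01 and 0.48. Replicates 2, 4 and 5 held the highest 3 values in 12 of these 17 members (an order looked at after the values were seen) and in 30.5% of the 2502 genes that were higher among all genes.

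Injury measures of the same animals also differed. Umod, a product of the thick ascending limb, had signals of 785.5, 2.682, 921, 21.59 and 5.367 in replicates 1 to 5, against 2393 to 3177 in controls. The animals lowest in Umod were replicates 2, 4 and 5. Havcr1, which encodes the injury marker KIM-1, had signals of 2177, 829.5, 679.7, 1581 and 1640, with 10.23 as the highest control, and did not follow that order. Angptl4 followed another order, with its highest signals in replicates 1, 3 and 5. The fit shares 1 estimate of spread over all 57 arrays, whereas these treated animals spread more widely than their controls in every called member. For Ehhadh the standard deviation of the log2 values was 0.783 in treated animals and 0.119 in controls, and for Acsl4 0.383 and 0.044. The standard errors, intervals and p-values given for this comparison can therefore be too small. For this reason the fit was repeated with the compared groups alone. Of the 24 calls 11 remained, namely Acsl1, Acsl4, Crot, Eci1, Decr1, Ehhadh and Angptl4 higher and Acadsb, Hadh, Ppard and Ppargc1a lower. The number of all genes called in that fit is not given here, so the drop cannot be read as particular to the members.

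**Figure D3:**
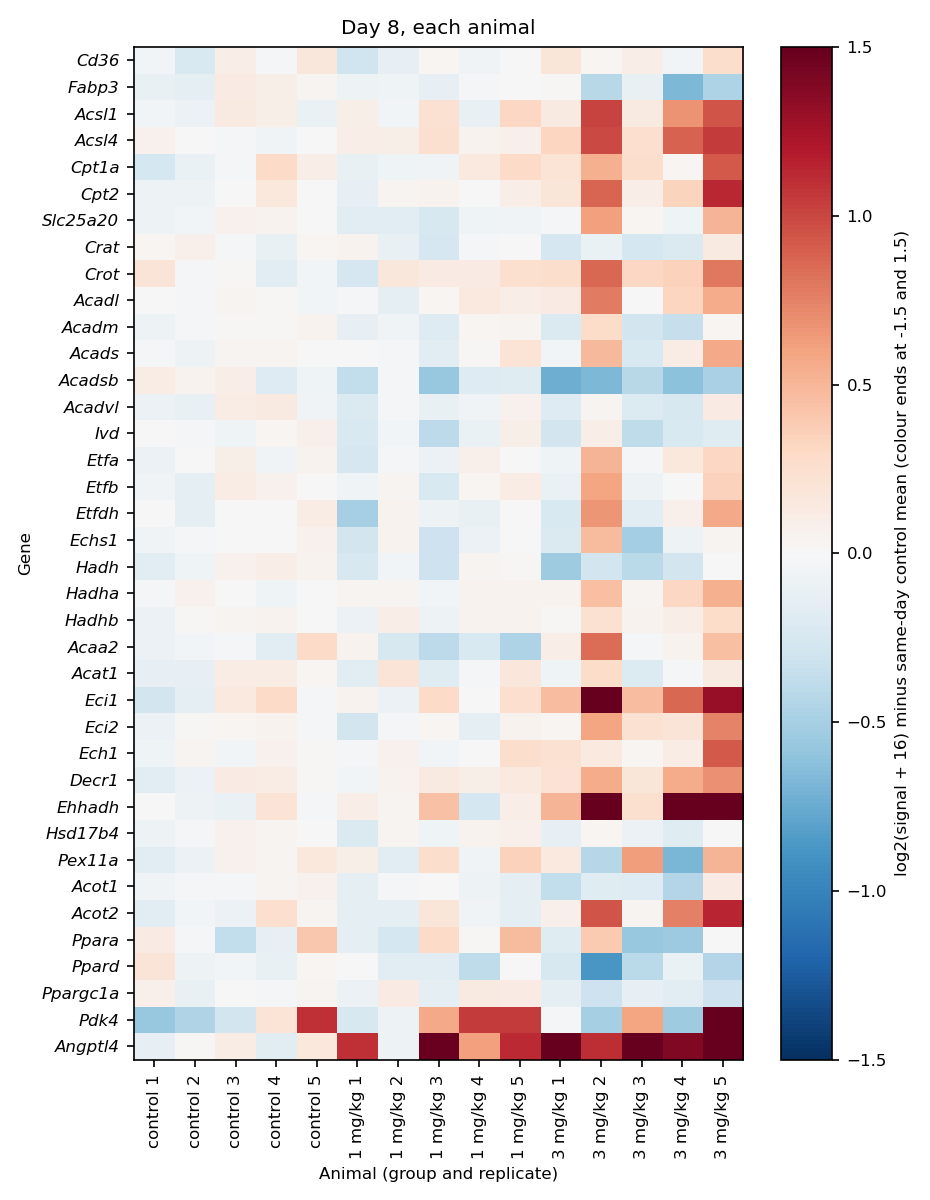
Each of the 15 animals of day 8 (columns, group and replicate) for the 38 genes (rows), coloured by log2(signal + 16) minus the mean of the same-day controls, with colours ending at -1.5 and 1.5. The columns of replicates 2 and 5 at 3 mg/kg are red in most rows, those of replicates 1 and 3 are pale in most rows, and the row of Angptl4 is red in all 5 animals of that dose.

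The heat map of day 8 shows the same animals side by side for every gene. Groups that did not overlap were found in 6 members upward (Angptl4, Ehhadh, Eci1, Acsl4, Crot and Decr1) and in 2 downward (Acadsb and Ppargc1a), where 9.41% of all genes did so upward and 6.95% downward.

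At 1 mg/kg on day 8, 0 of 38 members were called, where 0.522% of all genes were called. An unadjusted p under 0.05 was found in 2 members, Acadsb and Angptl4, and in 1510 of all 11683 genes. Angptl4 had signals of 62.58, 18.8, 86.09, 39.96 and 63.73, with 4 of 5 animals above every control. Its change of 0.85 ± 0.35 did not pass (adjusted p = 0.277). Havcr1 was at 911.8 and 1085 in replicates 1 and 3 and at 17.59 to 32.88 in the others, so the injury marker was uneven among the animals of this dose.

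The doses were also set against each other directly. At day 8, 21 of 38 members differed between 3 and 1 mg/kg, 17 higher and 4 lower at 3 mg/kg, where 23.1% of all genes differed (12.1% higher, 11.1% lower). The median difference was 0.18 over the members and 0.02 over all genes. Ehhadh was higher at 3 mg/kg by 1.13 ± 0.18 (adjusted p = 3.36e-06), Angptl4 by 1.13 ± 0.35 (adjusted p = 0.0131) and Acot2 by 0.65 ± 0.12 (adjusted p = 5.03e-05). Acaa2 also differed (0.54 ± 0.15, adjusted p = 0.00448), as did Etfdh (0.31 ± 0.10, adjusted p = 0.0187), neither of which passed against controls. The lower members were Fabp3, Acadsb, Hadh and Ppargc1a. For Ppard the difference was -0.26 (interval -0.48 to -0.05, adjusted p = 0.0671). The fit of these 2 groups alone called 2 members, and its count over all genes is not given here. Replicate 1 at 1 mg/kg had an actin 3′/5′ ratio of 8.58, against 4.52 to 6.01 in the others of its group. Without it 19 members differed, 15 higher and 4 lower, and the count over all genes in that fit is not given here.

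In the fit of all arrays, day 3 and day 5 held few calls among the members, but included Ppard. Fits of the compared groups alone called 9 members on day 3 and 10 on day 5. On day 3 at 3 mg/kg, 4 of 38 members were called, all lower, where 9.85% of all genes were called (4.28% lower). Ppard had signals of 134.6, 121.6, 108.1, 108.4 and 132.5 in controls and of 70.45, 104, 95.09, 84.15 and 84.6 at 3 mg/kg. The groups did not overlap (-0.41 ± 0.11, adjusted p = 0.0098). Hsd17b4 gave 1613, 1617, 1634, 1605 and 1739 against 1402, 1410, 1416, 1337 and 1318, a small decrease seen in every animal (-0.25 ± 0.06, adjusted p = 0.00198).

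The groups did not overlap in 5 members downward (Ppard, Hsd17b4, Echs1, Acot2 and Etfdh) and in 2 upward (Decr1 and Hadha), where 4.55% of all genes did so downward and 5.69% upward. Acadsb (-0.35 ± 0.10, adjusted p = 0.0191) and Cd36 (-0.31 ± 0.10, adjusted p = 0.0415) were also lower on day 3. Leaving out 1 animal lost the call of Acadsb without control replicate 1 or 5 or treated replicate 1 or 4 (-0.41 to -0.30), and that of Cd36 without control or treated replicates 1, 3 or 4 (-0.37 to -0.24). Ehhadh changed by -0.43 ± 0.18 and did not pass (adjusted p = 0.11). The actin 3′/5′ ratio, a measure of RNA integrity or labelling length, was 5.89 ± 0.10 (SD, n = 5) at 3 mg/kg and 4.66 ± 0.25 (SD, n = 5) in controls on day 3, without overlap. With that ratio as a covariate 1 of the 4 calls remained, that of Ppard, and the count over all genes is not given here. The 5 blood markers, 3 of them lower, summed to a median of 1135 against 2907 on that day; the part of either measure in these changes was not tested.

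At 1 mg/kg on day 3 none of the 38 members was called by limma (0.0942% of all genes were). The unadjusted p was under 0.05 in 704 of all 11683 genes and in 1 member. That member was Ppard, named after its values were seen, with signals of 85.77, 84.25, 92.76, 91.17 and 113.6. Of these, 4 of 5 lay below every control, and the change was -0.32 ± 0.11 (adjusted p = 0.411). Directly compared, 3 and 1 mg/kg differed in 0 of 38 members on day 3, where 3.12% of all genes differed. In this comparison 7 members and 2178 of all 11683 genes had an unadjusted p under 0.05.

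On day 5 at 3 mg/kg 4 of 38 members were called, 2 higher and 2 lower, where 8.8% of all genes were called (5.31% higher, 3.49% lower). Angptl4 had signals of 13.52, 13.44, 13.79, 14.67 and 16.54 in controls and of 217.8, 46.72, 198.5, 44.96 and 99.51 at 3 mg/kg. Every treated animal was above every control (1.95 ± 0.35, adjusted p = 0.00016), and the spread among treated animals was wide. With an offset of 64 the change was 1.12, and with no offset 2.77, past the threshold in both. Ppard gave 125.9, 150.2, 163.6, 150.6 and 128.4 against 56.39, 83.59, 77.48, 97.01 and 95.21, again without overlap (-0.72 ± 0.11, adjusted p = 6.43e-06). Its second, dimmer probe set gave -0.23 and did not pass on day 5 (adjusted p = 0.269).

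Eci1 was higher on day 5 (0.42 ± 0.13, adjusted p = 0.0332), with controls at 1174 to 1402 and treated animals at 1500 to 1862. Its dim second probe set gave -0.32 (adjusted p = 0.281) on that day. The Eci1 call was lost in 7 of the 10 fits that left out 1 animal, all but those without control replicate 5 or treated replicate 2 or 4, with changes from 0.39 to 0.46. Etfa was lower (-0.20 ± 0.06, adjusted p = 0.0403), a call lost with the actin 3′/5′ ratio as a covariate and in 9 of those 10 fits, all but that without treated replicate 5 (-0.22 to -0.18). Acsl1, Crot and Hadh did not overlap between groups on day 5 either, each lower in the treated animals, but their adjusted p-values were 0.0964, 0.0638 and 0.064. Groups did not overlap in 4 members upward (Angptl4, Eci1, Cpt2 and Etfb) and 5 downward on that day, where 5.29% of all genes did so upward and 3.82% downward.

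At 1 mg/kg on day 5, with 3 animals, limma called 0 of 38 members (0.0171% of all genes). Of the members 0 had an unadjusted p under 0.05, where 376 of all 11683 genes did. Between the doses on that day 3 of 38 members differed, where 3.97% of all genes did. Angptl4 was higher at 3 than at 1 mg/kg by 1.95 ± 0.40 (adjusted p = 0.00288), Crat was higher by 0.24 ± 0.06 (adjusted p = 0.0254) and Ppard was lower by 0.47 ± 0.12 on the log2 scale (adjusted p = 0.0201).

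Whether the effect of 3 mg/kg itself differed between days was tested as a change of the difference from control. From day 3 to day 5, 0 of 38 members passed in limma, where 1.52% of all genes did. For that change 5 members and 1873 of all 11683 genes had an unadjusted p under 0.05. From day 5 to day 8, 14 of 38 passed, 11 upward and 3 downward, where 16.3% of all genes did (8.65% upward, 7.69% downward). The largest was Ehhadh at 1.23 ± 0.25 (adjusted p = 0.000566), followed by Acsl1 at 0.86 ± 0.15 (adjusted p = 9.27e-05) and Crot at 0.79 ± 0.14 (adjusted p = 7.98e-05). Cd36, Fabp3, Crat and Acaa2 were also among the 14. Angptl4 was not among them: its effect changed by 0.03 ± 0.49 (adjusted p = 0.977), a wide interval.

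From day 8 to day 26 the effect changed in 17 of 38 members, 1 upward and 16 downward, where 15% of all genes changed (7.3% upward, 7.66% downward). Angptl4 changed by -2.78 ± 0.51 (adjusted p = 9.87e-05), Ehhadh by -1.47 ± 0.26 (adjusted p = 6.37e-05) and Eci1 by -1.03 ± 0.19 (adjusted p = 0.000148), while Acadsb changed by 0.52 ± 0.15 (adjusted p = 0.0107). Without replicate 4 of the day 26 controls these changes were -2.11 ± 0.43 (adjusted p = 0.000583), -1.38 ± 0.27 (adjusted p = 0.000393), -0.89 ± 0.19 (adjusted p = 0.00118) and 0.49 ± 0.15 (adjusted p = 0.0273). In that fit 14 members passed, 13 of them downward, and Cpt1a, Etfdh and Ech1 no longer did (adjusted p = 0.0608, 0.0819 and 0.128). Its count over all genes is not given here, so the 14 cannot be read as particular to the members.

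On day 26 few members differed from their controls. At 3 mg/kg, 1 of 38 was called, where 0.753% of all genes were called (0.197% lower), and the median change was -0.10 over the members and 0.03 over all genes. Eci2, the member called, had signals of 758.5, 718.4, 785 and 1000 in controls and of 633.3, 649.2, 572.9, 663 and 637.8 at 3 mg/kg. The groups did not overlap (-0.35 ± 0.09, adjusted p = 0.0457), but without control replicate 4 the change was -0.25 and did not pass (adjusted p = 0.209). Leaving out 1 animal at a time lost this call in 7 of 9 fits, that is without control replicate 1, 3 or 4 or without any treated animal but replicate 2. Hadha, Slc25a20 and Etfdh were also below every control in all 5 treated animals, where 2.37% of all genes were so placed. Their adjusted p-values were 0.132, 0.166 and 0.173, and 0.265, 0.45 and 0.446 without control replicate 4.

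Of the 38 changes at 3 mg/kg on day 26, 34 were negative, and 29 without control replicate 4, when the median was -0.07. That animal had the highest signal of the 4 controls in 27 of the 38 members (71.1%), against 26.1% of all genes, and the highest of all 14 day 26 animals in 19 of 38 (50%), against 10.1%. Its Angptl4 signal was 284.7, with the other controls at 18.29 to 49.16. Its Pdk4 signal was 532.5, against 74.76 to 123.8, and its Cpt1a signal was 1549, against 872.4 to 926.6. Of 25 other PPAR target genes, 17 were highest among the 4 controls in this animal and 2 were lowest. Among those named by the day 8 rule, Creb3l3 was at 37.93 against 2.757 to 17.78, Vnn1 at 1229 against 624.4 to 860.9, Cyp4a1 at 1207 against 785.3 to 942.8 and Plin2 at 1028 against 518.2 to 692.3.

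**Figure D4:**
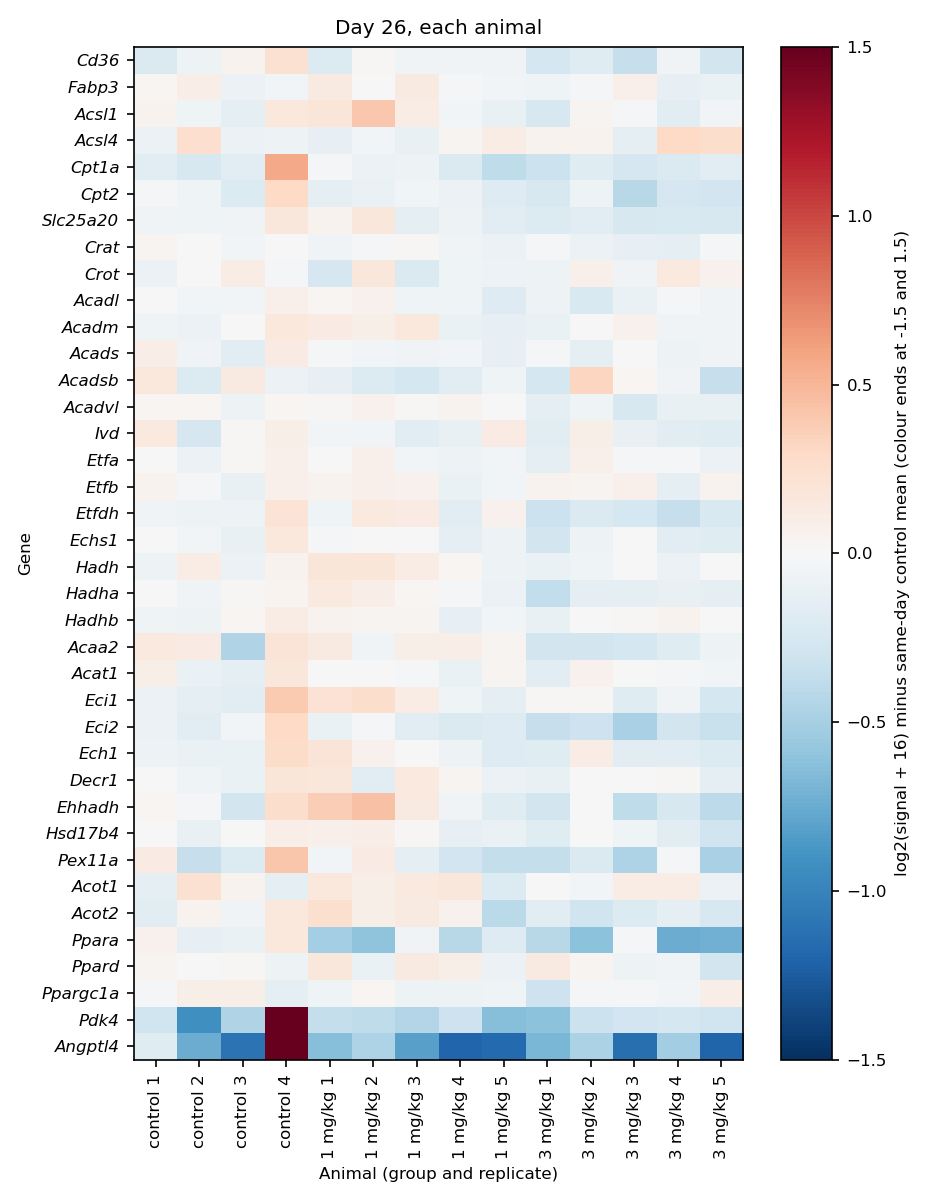
Each of the 14 animals of day 26 (columns, group and replicate) for the 38 genes (rows), coloured by log2(signal + 16) minus the mean of the same-day controls, with colours ending at -1.5 and 1.5. The column of control replicate 4 is red in many rows, most of all for Angptl4 and Pdk4, and those of the 3 mg/kg animals are pale or blue in most rows.

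The heat map of day 26 shows that the other controls lay closer to the treated animals than to this control for Angptl4 and Pdk4. At 1 mg/kg on day 26, limma called 0 of 38 members (0.00856% of all genes), and 23 changes were negative, or 13 without that control. Among the members Angptl4 alone had an unadjusted p under 0.05, where 776 of all 11683 genes did. The Angptl4 change was -0.86, and -0.18 without that control. Between the doses on day 26, 0 of 38 members and 0% of all genes passed in limma. The unadjusted p was under 0.05 in 8 members and in 1197 of all 11683 genes.

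Genes near the pathway, from lists fixed by name, were read in the same fit at 3 mg/kg on day 8. Of 25 other PPAR target genes measured, 8 were higher and 2 lower, where 37.3% of all genes were called (21.4% higher, 15.9% lower), and the median was 0.19 against 0.04 over all genes. Vnn1, a pantetheinase that frees a precursor of coenzyme A, rose by 1.98 ± 0.22 (adjusted p = 8.48e-10), and Creb3l3, a hepatic transcription factor of fasting, by 1.54 ± 0.26 (adjusted p = 4.5e-06). The mean signal of Creb3l3 was 2.132 in controls and 55.93 at 3 mg/kg. Its control signal thus lay under the offset of 16, and the size of its change depends on that offset. Cyp4a1, a fatty acid omega-hydroxylase, rose by 1.07 ± 0.16 (adjusted p = 5.49e-07), and Plin2, a lipid droplet coat protein, by 0.62 ± 0.13 (adjusted p = 0.00013).

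Of 17 other genes listed under peroxisomal oxidation, 12 were tested. The test called 4 of these, 1 higher and 3 lower (median -0.05), beside the same 37.3% of all genes. The list is broad and also holds an epoxide hydrolase and a reductase. Ephx2, an epoxide hydrolase, rose by 0.34, while Pecr, a trans-enoyl-CoA reductase, changed by -0.58, Acox2, an oxidase of branched chains and bile acid precursors, by -0.38, and Hacl1, a lyase of alpha-oxidation, by -0.32. Of 14 receptor partners and coregulators 1 was called, Med1, a subunit of the Mediator complex, higher by 0.18.

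Of 9 tested genes listed under fatty acid synthesis 4 were called, again where 37.3% of all genes were, and 3 of them were higher. These were Srebf1, the regulator of lipid synthesis (0.83 ± 0.21, adjusted p = 0.00167), Elovl6, an elongase (0.50), and Dgat1, which makes triglyceride (0.20). Acly, which supplies acetyl-CoA, was lower (-0.28). Genes that burn branched-chain amino acids and ketones were called in 9 of 13, 7 of them lower (median -0.22), where 37.3% of all genes were called and 15.9% were lower. Bckdhb, of the branched-chain ketoacid dehydrogenase, changed by -0.80 ± 0.10 (adjusted p = 4.78e-09), Oxct1, which activates ketone bodies, by -0.45, Pccb, of propionyl-CoA carboxylase, by -0.40 and Bdh1, of ketone body interconversion, by -0.31. Acadsb, lower among the members, works in the same breakdown of branched chains. Citrate cycle genes were called in 7 of 16, 5 of them lower (median -0.13), beside the same shares of all genes, with Idh3a at -0.48 and Dlst at 0.33 the farthest in each direction.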

How the data were processed

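Linear MAS5 intensity values were deposited by the authors, with MAS5 named in the submitters' processing notes; no source used here gives its version or settings. The intensity values of each array had a 2% trimmed mean of 99.99, so arrays were already scaled. Of 31099 probe sets, 20826 carried 1 symbol of the platform annotation, 436 several and 9780 none; those with several named no gene.

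Values were used as log2(signal + 16). Probe sets above the array's 40th percentile on at least 3 arrays were kept (21829), and the probe set with the highest mean stood for its gene (11683 genes). limma 3.58.1 in R 4.3.3 fitted 12 group means to all 57 arrays with a trended prior. Differences are the first group minus the second. Replicates are separate animals per the labels. The scripts were tested on simulated data.

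The members and lists were chosen with earlier results of these data known. Any of the 38 members could be named, with up to 4 called genes of the largest day 8 change at 3 mg/kg per other list, plus Havcr1 and Umod. The alternatives tried were another offset, a floor, quantile normalization, other filters and probe sets, array weights, separate fits, the actin ratio, a replicate block and leaving out each animal. Listed genes without a tested probe set were not analysed here.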

Additional observations from a re-analysis of the deposited data

Results flagged for a closer look

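In groups of 4 or more animals, 418 sets of a gene and a group were looked at for 1 animal apart from the others, and 32 were found where chance gives about 1 in 20, or 20.9. Replicate 4 of the day 26 controls was apart on the high side for Cpt1a (signal 1549), Eci1 (2115), Ech1 (1130), Etfdh (571.8) and Slc25a20 (303.7). Among the other day 26 controls, replicate 2 was high for Acsl4 (817.6) and replicate 3 was low for Acadvl (552.8) and Acaa2 (977.8). On earlier days, controls stood high for Acsl1 (927), Hadh (2021) and Ehhadh (710.1) on day 5 and for Hsd17b4 (1739) on day 3, and low for Ppara (1.628) on day 3.

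Among animals given 1 mg/kg, the low values were Cd36 on day 3 (52.28), Crot (588.5), Etfdh (308.6) and Hadha (635.5) on day 8, the first 2 of the day 8 values in replicate 1, and Acot1 (974.7) and Acot2 (428) on day 26. The high values were Acsl4 on day 8 (856.9) and Ppargc1a on day 26 (342.9). That replicate 1 of day 8 had the highest actin 3′/5′ ratio of its group, 8.58. At 3 mg/kg, low values were Slc25a20 (259.3) and Acot2 (396.6) on day 3, Acat1 on day 5 (1789), and Etfb (1722), Hadha (536.3) and Pdk4 (95.76) on day 26. High values at 3 mg/kg were Acsl1 on day 3 (748.7), Ivd on day 26 (914.7) and Ech1 on day 5 (1100), day 8 (1521) and day 26 (1009), the first 2 of the Ech1 values in animals numbered 5.

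The effect of 3 mg/kg differed between days by limma's test of the difference itself. From day 5 to day 8 it rose, on the log2 scale, for Ehhadh (1.23), Acsl1 (0.86), Crot (0.79), Acsl4 (0.71), Acaa2 (0.63), Acot2 (0.55), Decr1 (0.53), Cd36 (0.40), Etfa (0.37), Eci2 (0.36) and Hadhb (0.22). It moved downward for Acadsb (-0.47), Fabp3 (-0.45) and Crat (-0.30). From day 8 to day 26 it moved downward for Angptl4 (-2.78), Ehhadh (-1.47), Eci1 (-1.03), Acot2 (-0.80), Cpt2 (-0.78), Eci2 (-0.71), Acsl1 (-0.66), Cpt1a (-0.62), Acsl4 (-0.59), Crot (-0.48), Decr1 (-0.48), Etfdh (-0.46), Hadha (-0.46), Acadl (-0.45), Slc25a20 (-0.43) and Ech1 (-0.41), and upward for Acadsb (0.52).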

How the results depend on the processing

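Of 33 calls of single members against controls, all 33 kept their direction and call with a floor in place of the offset and with the replicate block, 32 with log2(signal + 64), 32 with the mean of the probe sets, 31 without the filter, 30 with quantile normalization, 28 with array weights, 28 with the actin ratio and 18 in the fit of the compared groups alone. Leaving out 1 animal kept 270 of 329. At the 60th percentile filter all 31 members' calls that could be read were kept. With another probe set 6 of 13 calls were kept, 6 were lost and Eci1 on day 5 reversed to -0.32.

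The counts of members called moved as follows. At 3 mg/kg on day 3 (4), compared groups alone gave 9, array weights 8 and the actin ratio 1, and leaving out 1 animal gave 2 to 4. On day 5 (4), quantile normalization gave 7, groups alone 10 and weights 11, and leaving out 1 animal gave 2 to 4. On day 8 (24) groups alone gave 11, and leaving out 1 animal gave 20 to 26. On day 26 (1), log2(signal + 64), quantile normalization, no filter, groups alone and the actin ratio each gave 0, and leaving out 1 animal gave 0 to 1. Between doses, day 3 (0) gave 2 by quantile normalization, 5 by groups alone, 6 by weights and 0 to 1 without 1 animal. Day 5 between doses (3) gave 5 by quantile normalization, 5 by weights and 1 to 3 without 1 animal. Day 8 between doses (21) gave 2 by groups alone and 18 to 24 without 1 animal. Day 26 between doses (0) gave 1 by weights. The change from day 5 to day 8 (14) gave 8 by groups alone and 9 to 18 without 1 animal, and that from day 8 to day 26 (17) gave 8 and 14 to 21. The 4 comparisons of 1 mg/kg with controls and the change from day 3 to day 5 gave 0 under every alternative run. The cause of these shifts was not tested, except that separate fits use fewer animals. Counts over all genes under these alternatives are not given here, so the shifts cannot be read as particular to the members.

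Deviations of same-numbered animals of a dose and its control correlated weakly (from -0.168 to 0.259, 6 of 36 over 0.1). Animals with different numbers, and the doses with each other, were not compared in this way. The values therefore cannot decide whether the numbers pair the animals. With the replicate block, 24 members were called at 3 mg/kg on day 8, 6 on day 5 and 22 between doses on day 8. Counts over all genes with that block are not given here. Arrays number 3 to 5 per group, which limits precision, and probe sets near the floor, such as those of Ppara and Acadsb, give little information on size.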
